A study of Homo sapiens with 6 samples.

Results

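The comparison set 2 arrays of cells with LincIN shRNA1 against 2 arrays of cells with the empty vector, 4 of the 6 arrays of the series, and was chosen by the titles of the arrays. All cells were of the line MDA-MB-231-Luc-D3H1, which descends from the triple-negative human breast cancer line MDA-MB-231 and carries luciferase. The control cells stably carried pMKO.1-GFP with no hairpin, and the shRNA1 cells the same GFP vector with a hairpin against LincIN, a long noncoding RNA. Cells were grown to about 70% confluence, the series text gives 2 independent experiments as the source of the RNA, and 250 ng went on each Affymetrix Human Gene 2.0 ST array. The labels do not say whether a line was a pool or 1 clone. The 2 arrays of shRNA2, a second hairpin against the same RNA, entered the common fit. Otherwise they were used to mark shared genes, in direct tests against shRNA1 and for medians by chromosome. The values were log2 signals after RMA, so a difference of 1 is a 2-fold change. Tested were the 16098 of 53617 probe sets with exactly 1 gene symbol, which stand for 14884 genes. LincIN itself had no named probe set and was not analysed here, so the knockdown could not be checked on the arrays and each group is named by its label only.

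A short hairpin RNA is processed into a small RNA that guides the degradation of a matching transcript. MDA-MB-231, a basal B line of breast cancer, expresses mesenchymal genes, chemokine receptors and matrix proteases at high levels and is widely used to study invasion. Several gene groups below belong to the sterol pathway, in which the transcription factor SREBP, made from SREBF2 and its relative SREBF1, is held in the endoplasmic reticulum by INSIG proteins when sterol is plentiful and switches on the enzymes of sterol synthesis when it is scarce.

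The arrays of the comparison were close in level. Their medians over the probe sets tested lay between 7.09 and 7.16. Of the 7 measured markers of the line, among them VIM, CD44 and EGFR, 0 were called by limma, and their mean signal per array was between 10.51 and 10.66 in the 4 arrays. The luminal, fibroblast and hematopoietic markers had 0 called by limma of 5, 2 and 1 measured, with ESR1 and PGR at a mean of 6.13 and 4.85 with vector. Of 3 endothelial markers KDR was lower, at 6.30 and 6.30 against 7.98 and 7.67 with vector (-1.52), a call lost without vector replicate 1 or either shRNA1 array (up to 0.0743). Across probe sets, replicates differed with an SD of 0.397 in vector cells and 0.395 with shRNA1, against 0.231 with shRNA2. The common fit pools these spreads, so the p-values for shRNA1 rest in part on the tighter shRNA2 arrays.

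At an adjusted p under 0.05 in limma, 80 probe sets had a higher and 221 a lower signal with shRNA1 than with vector, 0.497% and 1.37% of those tested and 1.87% in all. The differences are shRNA1 minus vector throughout, a direction that opposes that of the study's own table of hits. In all 301, the ranges of the shRNA1 and the vector arrays did not overlap, which was the case for 36.7% of all probe sets tested (21.7% with shRNA1 higher and 15% lower). The called probe sets stand for 294 genes, 76 higher and 218 lower. The changes of the lower ones were larger, with a median of 1.33 against 1.12 in size, and 40 of them exceeded 2 on the log2 scale against 7 of the higher ones. With the replicate number as a block 535 probe sets were called, 3.32%, and these include all 301. A fit of only the 4 arrays called 111, or 0.69%, and all 111 were among the 301. When each of the 6 arrays was left out in turn, 87 of the 301 kept their call in every fit, 16 higher and 71 lower, and 125 kept it in none. Below, a gene named as risen or fallen without further remark kept its call in all 6 of these fits. In a fit with 1 array of a group left, that array was assumed to vary like the others. A single shRNA2 array adds no estimate of spread. The fits without either shRNA2 array therefore repeat the fit of the 4 arrays for shRNA1 against vector, and the 6 fits are not all separate.

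**Figure D1:**
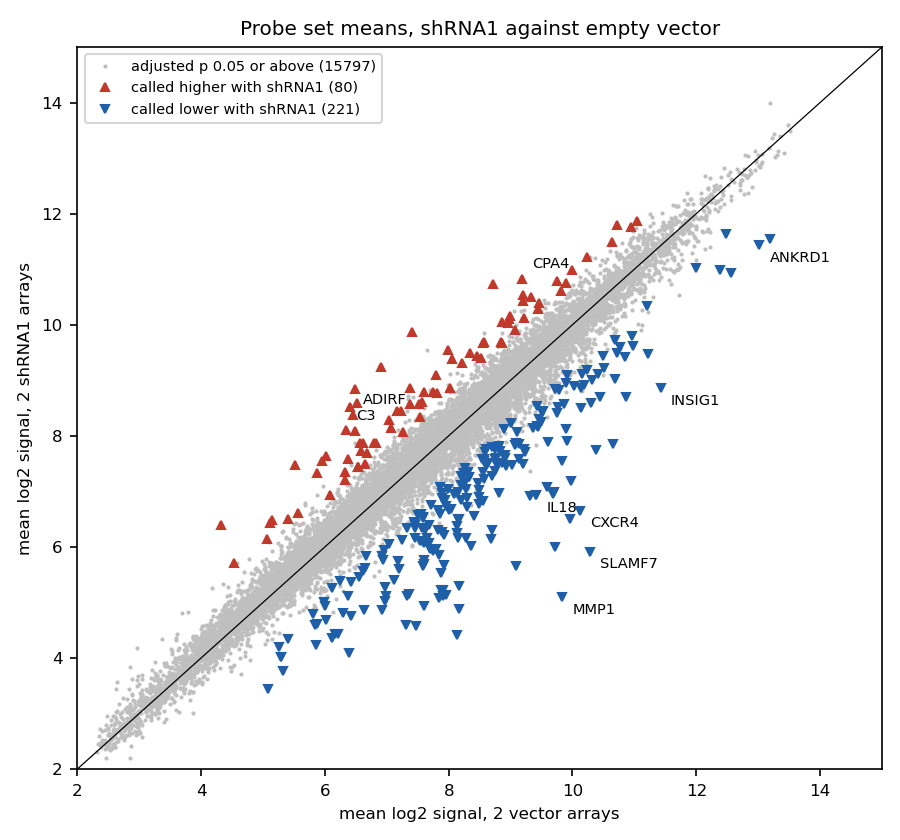
Mean log2 signal of the 2 shRNA1 arrays (y axis) against that of the 2 vector arrays (x axis) for the 16098 probe sets tested. Upward triangles mark the 80 called higher, downward triangles the 221 called lower, grey points the others, and the line marks equal signal. The called probe sets below the line reach farther from it than those above, with MMP1 and SLAMF7 farthest.

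Sequences are shown for a pair of gene groups described here, the sterol genes and the microRNA genes. Each promoter window below holds 250 bases before and 50 after the start of the gene, taken from RefSeq (GRCh38.p14) and written on the strand of the gene. Of the 24 genes of both sterol lists with a window in the table, 4 were chosen because they stand for an enzyme, the regulator, its retention factor and a sterol carrier. All 4 were called lower with shRNA1. Capitals mark the sterol regulatory element TCACNCCAC and the CCAAT box CCAAT, each on either strand. These motifs do not overlap in the windows shown.
HMGCS1 (chr5:43313363-43313662, minus strand): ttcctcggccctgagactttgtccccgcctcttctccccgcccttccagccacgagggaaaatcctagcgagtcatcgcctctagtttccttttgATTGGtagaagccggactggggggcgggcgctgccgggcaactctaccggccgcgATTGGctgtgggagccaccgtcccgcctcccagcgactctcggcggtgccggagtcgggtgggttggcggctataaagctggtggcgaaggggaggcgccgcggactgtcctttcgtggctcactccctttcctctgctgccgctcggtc
SREBF2 (chr22:41832855-41833154, plus strand): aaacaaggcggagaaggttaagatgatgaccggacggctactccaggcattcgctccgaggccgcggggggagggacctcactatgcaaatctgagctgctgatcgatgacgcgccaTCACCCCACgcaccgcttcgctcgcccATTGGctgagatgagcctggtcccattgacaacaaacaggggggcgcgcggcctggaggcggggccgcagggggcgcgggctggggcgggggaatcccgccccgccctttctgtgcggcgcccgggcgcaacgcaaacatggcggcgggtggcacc
INSIG1 (chr7:155297628-155297927, plus strand): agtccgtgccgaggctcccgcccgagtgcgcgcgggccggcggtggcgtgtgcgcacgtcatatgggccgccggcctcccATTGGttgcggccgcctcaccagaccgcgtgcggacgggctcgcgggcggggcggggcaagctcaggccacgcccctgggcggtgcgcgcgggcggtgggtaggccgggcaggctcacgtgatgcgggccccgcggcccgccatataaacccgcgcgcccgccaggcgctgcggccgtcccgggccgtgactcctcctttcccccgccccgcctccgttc
STARD4 (chr5:111512486-111512785, minus strand): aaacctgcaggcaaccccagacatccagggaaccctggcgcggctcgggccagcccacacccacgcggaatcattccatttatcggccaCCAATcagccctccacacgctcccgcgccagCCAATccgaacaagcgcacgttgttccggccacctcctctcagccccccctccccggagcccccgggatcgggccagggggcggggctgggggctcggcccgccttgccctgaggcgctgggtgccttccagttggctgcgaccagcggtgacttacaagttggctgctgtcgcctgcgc
The sterol regulatory element in this spelling was found in the SREBF2 window, 133 bases before the start. This was the 1 window with it among 10 of sterol genes called lower. The element was in 0 of the 12 windows of measured sterol synthesis genes. It occurred in 1.13% of all 35116 promoter windows. A CCAAT box was present in 10 of the 12 windows of measured sterol synthesis genes (83.3%), and in 5 of the 6 called lower. Over both sterol lists it was in 8 of 10 windows of genes called lower and 8 of 14 of genes not called. It was in 38.1% of the windows of all genes called lower, in 37.7% of those called higher and in 34.6% of all windows. A match is a string of letters only and was not tested as a site.

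The microRNA genes called lower were MIR4500, MIR320C1 and MIR3690, and their mature sequences follow from RefSeq (GRCh38.p14) with the seed, bases 2 to 8, in capitals.
hsa-miR-4500 (chr13:87618671-87618687, minus strand): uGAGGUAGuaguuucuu
hsa-miR-320c (chr18:21683559-21683578, plus strand): aAAAGCUGgguugagagggu
hsa-miR-3690 (chrX:1293927-1293949, plus strand): aCCUGGACccagcguagacaaag
The seed of miR-4500 is that of the let-7 family, and 11 mature human microRNAs in the table carry it. Of the same microRNAs searched, 4 carry the seed of miR-320c, and only miR-3690 carries its own. The set searched may not hold every human microRNA. MIR4500 read 5.27 and 4.88 in the vector arrays and 3.59 and 3.31 in the shRNA1 arrays, a difference of -1.62 (standard error 0.20, adjusted p = 0.00987). MIR320C1 had 6.04 and 5.92 with vector and 4.99 and 5.01 with shRNA1 (difference -0.98), while the shRNA2 arrays were at 6.17 and 5.93, level with vector. Its direct difference between the shRNAs of -1.05 had an adjusted p of 0.0701, and 0.0207 with the replicate block. Both probe sets of MIR3690 held identical values, 5.36 and 5.20 with vector and 4.28 and 3.74 with shRNA1. MIR548I2, named only, was higher on 1 of its 2 probe sets, at 4.74 and 4.34 with vector and 5.52 and 5.91 with shRNA1, and its other probe set differed by 0.30. All of these are low signals, and the array cannot tell a mature microRNA from its hairpin gene. The calls of MIR320C1 and MIR548I2 were lost in each of the 6 fits with 1 array left out (adjusted p up to 0.136 and 0.184), that of MIR3690 in 5 of them, all but the fit without shRNA1 replicate 1 (up to 0.138), and that of MIR4500 without vector replicate 1 or shRNA1 replicate 2 (up to 0.0642). Of 1072 microRNA genes taken at their brightest probe set, 3 were called lower and 0 higher by limma, a share of 0.28% against a background of 1.46% lower.

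The counts of gene lists that follow use 1 probe set per gene, the brightest, of which 0.497% were called higher and 1.46% lower among 14884 genes, with a median change of 0.05. Sterol synthesis was the list with the lowest median. Of 14 genes measured, 7 were lower and 0 higher, with a median of -1.26. HMGCS1, which condenses acetoacetyl-CoA into HMG-CoA ahead of the mevalonate step, read 9.84 and 10.09 in the vector arrays and 6.94 and 7.43 with shRNA1. The shRNA1 arrays lay far below both vector arrays, by 6.89-fold on average (log2 difference -2.78, standard error 0.20, adjusted p = 0.002). SQLE, which adds oxygen to squalene, had 9.66 and 9.54 with vector and 7.69 and 8.11 with shRNA1. DHCR7, the last enzyme before cholesterol, had 11.31 and 11.11 with vector and 9.73 and 9.21 with shRNA1 (difference -1.75). The groups did not overlap for either enzyme. MSMO1, a sterol demethylase, IDI1, an isomerase of isoprenoid units, HSD17B7, a sterol ketoreductase, and MVK, mevalonate kinase, had differences of -1.64, -1.29, -1.27 and -1.25. MVD, FDPS and NSDHL of the same pathway had differences of -1.16, -0.86 and -0.89 and did not pass (adjusted p from 0.201 to 0.322). DHCR7 lost its call without vector replicate 1 (adjusted p = 0.0548), and MSMO1, IDI1, HSD17B7 and MVK lost theirs in 5 of the 6 fits each (up to 0.163). MSMO1 and MVK kept theirs only without shRNA1 replicate 1, IDI1 only without shRNA1 replicate 2 and HSD17B7 only without vector replicate 2. The pseudogene HSD17B7P2 moved with HSD17B7 (-1.72 and -1.27), and probes of such near copies may read both.

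Of the genes that sense and carry sterol, some fell as well. Of 13 measured, 4 fell and 1 rose, with a median of -0.17. INSIG1 read 11.52 and 11.33 with vector and 8.85 and 8.85 with shRNA1. The shRNA1 arrays were nearly equal and far below vector, with a change of -2.57 (standard error 0.16, adjusted p = 0.00129). STARD4, a carrier of cholesterol between membranes, had 10.18 and 10.41 with vector and 8.60 and 8.59 with shRNA1. LPIN1, a phosphatidate phosphatase that also acts on SREBP in the nucleus, fell by 1.46. SREBF2 itself had 9.83 and 9.67 with vector and 8.39 and 8.41 with shRNA1 (difference -1.34, adjusted p = 0.0104), a call lost without vector replicate 1 or either shRNA1 array (up to 0.0682). SREBF1, INSIG2 and SCAP, its partner genes, were at -0.23, 0.00 and 0.20 and did not pass. GRAMD1B, which moves cholesterol from the plasma membrane inward, was the member that rose, by 2.06. Of 18 genes of fatty acid synthesis and desaturation, 3 were lower. SCD, the desaturase that makes oleate, was among the brightest genes of the array at 13.32 and 13.07 and fell to 11.58 and 11.52 (difference -1.65, adjusted p = 0.00613), and its dimmer probe set fell by 1.75, a call lost in most fits with 1 array left out. ACSS3, a mitochondrial acyl-CoA synthetase, fell by 1.83 and FADS2, a desaturase of polyunsaturated fatty acids, by 1.22. ACSS3 lost its call without either vector array or shRNA1 replicate 1 (up to 0.076) and FADS2 in all 6 fits (up to 0.0748).

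Receptors of innate immunity and of chemokines were among the genes with the largest falls. CXCR4, the receptor of the chemokine CXCL12, read 9.85 and 10.39 with vector and 6.61 and 6.69 with shRNA1. Its change of -3.47 is an 11.1-fold lower signal (standard error 0.20, adjusted p = 0.00129). TLR4, the lipopolysaccharide receptor, had 9.52 and 9.29 with vector and 7.0 and 6.89 with shRNA1 (difference -2.47). MERTK, a receptor kinase for the engulfment of dying cells, had 9.24 and 9.38 with vector and 6.95 and 6.88 with shRNA1 (-2.40). For all 3 receptors, both shRNA1 arrays were far below both vector arrays. Of 22 receptors of the innate immune and scavenger list 4 were lower, these last 2 with SLAMF7 and OLR1, and 0 higher, while the median of the list was -0.02.

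Among 25 chemokine and interleukin genes, 5 were lower and 1 higher. IL18, a cytokine of the interleukin-1 family, had 9.19 and 9.63 with vector and 6.80 and 7.07 with shRNA1 (-2.47, standard error 0.21, adjusted p = 0.00323). CXCL8, a neutrophil attractant, had 7.59 and 7.62 with vector and 5.67 and 5.73 with shRNA1 (-1.90). The replicates of CXCL8 were close in both groups compared with this difference. IL24 fell by 1.41 and IL11, a cytokine of the interleukin-6 family, by 1.13, while ACKR3, a scavenging receptor of CXCL12, was higher by 0.85. IL24 lost its call without either vector array or shRNA1 replicate 1 (up to 0.0553), IL11 in all fits but that without vector replicate 2 (up to 0.0863) and ACKR3 in all 6 (up to 0.146). Of 12 NF-kB targets, CXCL8 and PTGS2, the inducible cyclooxygenase, fell and VCAM1, an adhesion molecule, rose. PTGS2 fell by 1.63, a call that was lost without either shRNA1 array or either shRNA2 array (up to 0.0657). C3, the central complement component, read 6.45 and 6.23 with vector and 8.29 and 7.91 with shRNA1, a rise of 1.76 (standard error 0.19, adjusted p = 0.00613). CFB, complement factor B, was higher by 0.80, from 7.56 and 7.53 to 8.37 and 8.33, and lost its call in all 6 fits (up to 0.166). In the common fit these were the 2 called of 8 complement and coagulation genes, and both were higher.

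**Figure D2:**
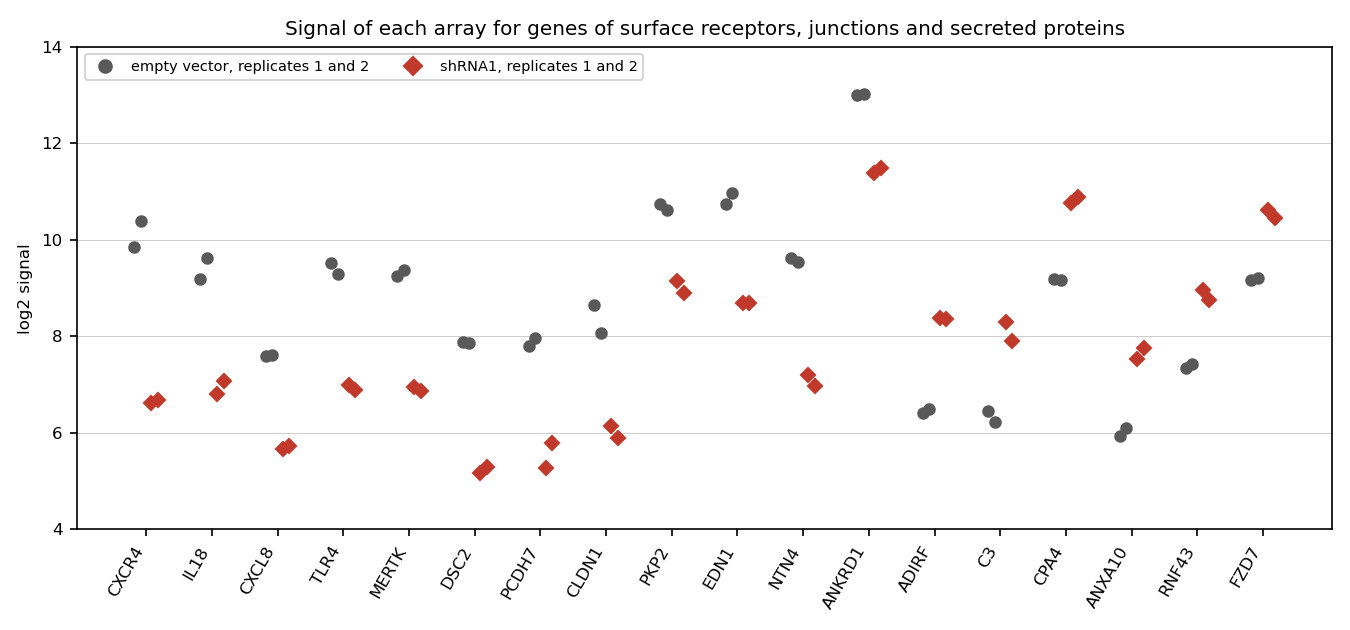
Log2 signal (y axis) in each of the 2 vector arrays (circles) and 2 shRNA1 arrays (diamonds) for 18 genes of the groups described here. The arrays of the groups do not overlap for any gene shown, and the 12 genes from CXCR4 to ANKRD1 are lower with shRNA1 and the 6 from ADIRF to FZD7 higher.

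Several genes of cell junctions fell. Of 24 cadherins, desmosomal and tight junction genes, 5 were called lower and 0 higher, with a median of -0.20. At an unadjusted p under 0.05 in limma, 0 were higher and 10 lower. DSC2, a desmosomal cadherin, had 7.88 and 7.86 with vector and 5.16 and 5.29 with shRNA1 (-2.65, adjusted p = 0.00129). PCDH7, a protocadherin, had 7.80 and 7.96 with vector and 5.28 and 5.80 with shRNA1 (-2.34). CLDN1, a tight junction strand protein, had 8.65 and 8.08 with vector and 6.14 and 5.90 with shRNA1 (-2.34). The shRNA1 arrays were below both vector arrays for each of these. PKP2, a desmosomal plaque protein, was bright in both groups, at 10.74 and 10.62 with vector and 9.14 and 8.90 with shRNA1 (-1.66, adjusted p = 0.0045). DSG2, the partner of DSC2 in the desmosome, had 10.29 and 10.09 with vector and 9.04 and 8.80 with shRNA1 (-1.27), and lost its call without vector replicate 1, either shRNA2 array or shRNA1 replicate 2 (up to 0.082).

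Of 25 growth factor ligands, 4 were lower and 0 higher by limma. EDN1, endothelin-1, had 10.75 and 10.97 with vector and 8.69 and 8.69 with shRNA1 (-2.17, standard error 0.15, adjusted p = 0.00166). Its receptor gene EDNRB had 8.10 and 8.29 with vector and 7.23 and 7.0 with shRNA1 (-1.08), and lost its call in all 6 fits (up to 0.113). CCN3, a matricellular protein, fell by 1.65. CCN2, the connective tissue growth factor, was read by 2 probe sets. The brighter fell from 12.38 and 12.39 to 11.08 and 10.89 (-1.40, adjusted p = 0.00918), and the dimmer had a difference of -2.68, though its shRNA2 replicates were 7.08 and 8.67. CCN2 is also a target of YAP and TAZ, as is ANKRD1, which had 13.01 and 13.03 with vector and 11.39 and 11.48 with shRNA1 (-1.58, adjusted p = 0.00408). These were the 2 called of 11 such targets, whose median was -0.06. The call of the brighter CCN2 probe set was lost without either vector array or shRNA1 replicate 2 (up to 0.0624). Of the axon guidance list, NTN4, a netrin of basement membranes, fell from 9.63 and 9.55 to 7.20 and 6.98 (-2.50). PLXDC2, a plexin-domain receptor of the same list, fell by 2.77, RELN, the ligand reelin, was at -1.48, and NRP1, a semaphorin co-receptor, at 0.85. RELN lost its call without vector replicate 1, either shRNA2 array or shRNA1 replicate 2 (up to 0.0864) and NRP1 in all 6 fits (up to 0.176).

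The called genes among Wnt receptors and regulators were all higher in the common fit. Of 22 measured, 3 rose and 0 fell by limma, while the median was -0.05. RNF43, a ubiquitin ligase that removes Frizzled receptors, had 7.34 and 7.42 with vector and 8.97 and 8.75 with shRNA1 (1.48, standard error 0.15, adjusted p = 0.00574). FZD7, a Frizzled receptor, had 9.18 and 9.22 with vector and 10.62 and 10.45 with shRNA1 (1.34, adjusted p = 0.00676). The third was APCDD1L, a relative of a Wnt inhibitor, whose change was the largest rise of all, 2.46. LRIG1, a negative regulator of receptor tyrosine kinases chosen after its values were seen, rose by 1.33, and SORCS2, a sorting receptor, by 1.56. ADIRF, a gene named for adipogenesis, rose from 6.41 and 6.50 to 8.39 and 8.37 (1.93, adjusted p = 0.0027). CPA4, a carboxypeptidase, rose from 9.19 and 9.18 to 10.76 and 10.89 (1.64), and ANXA10, an annexin, from 5.94 and 6.10 to 7.54 and 7.75 (1.62). For all 3 both shRNA1 arrays were above both vector arrays, with the replicates close together.

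Metalloproteases and matrix genes showed changes in both directions. Besides MMP1, the list of 20 had MMP8, neutrophil collagenase, lower at 5.76 and 4.85 with shRNA1 against 8.65 and 7.70 with vector (-2.87, adjusted p = 0.0131). Replicates of MMP8 lay far apart in both groups, and its call was lost without shRNA1 replicate 2 or either shRNA2 array (up to 0.0642). ADAM17, a sheddase of growth factors, fell by 1.28. MMP16, a membrane-type metalloprotease, was higher by 1.29 and lost its call without vector replicate 2, either shRNA2 array or shRNA1 replicate 2 (up to 0.0856). Of 16 collagens and matrix genes, 4 were lower and 0 higher by limma, although the median was 0.05. PXDN, a peroxidase that crosslinks collagen IV, had 10.29 and 9.99 with vector and 8.48 and 8.52 with shRNA1 (-1.64, adjusted p = 0.00465). HAS2, a hyaluronan synthase, fell by 1.78, FRAS1 by 1.58 and LOXL2, a lysyl oxidase, by 0.95. HAS2 lost its call without any 1 of the vector and shRNA1 arrays (up to 0.129), FRAS1 without vector replicate 1, either shRNA2 array or shRNA1 replicate 2 (up to 0.0725) and LOXL2 in all 6 fits (up to 0.111). CEMIP, which takes part in the breakdown of hyaluronan, was higher by 1.13, a gene chosen after its values were seen, with its call lost in all 6 fits (up to 0.0878).

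Transcription factors of lineage formed the list with the most falls, 8 lower and 1 higher of 28. MITF, the melanocyte factor, had 7.31 and 7.10 with vector and 5.58 and 5.62 with shRNA1 (-1.60, adjusted p = 0.0045). ZNF704 fell by 1.71 and ZNF804A by 2.72, both zinc finger genes. SPDEF, an ETS factor of luminal epithelium, fell by 1.54, and FOXA2, a forkhead factor of endoderm, fell by 1.56. LINC00261, a noncoding RNA gene next to FOXA2, fell from 7.75 and 7.18 to 4.49 and 4.68 (-2.88, adjusted p = 0.00202). ZNF521, a zinc finger gene, fell by 2.00, EPAS1, a hypoxia-inducible factor, by 1.28, while RUNX2, a factor of bone, was higher by 0.95. ZNF521 lost its call without shRNA1 replicate 2 (0.0624), FOXA2 without any 1 of the shRNA1 and shRNA2 arrays (up to 0.0741), EPAS1 in all fits but that without shRNA1 replicate 1 (up to 0.153) and RUNX2 in all 6 (up to 0.176).

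Some enzymes of amine and tryptophan breakdown were lower. Of 16 genes of this list 4 were called, all lower. MAOA, which oxidises serotonin and noradrenaline, had 8.94 and 8.70 with vector and 7.16 and 6.79 with shRNA1 (-1.84, adjusted p = 0.00465). KYNU, kynureninase, fell by 1.77, and NMNAT2, which makes NAD, by 1.36, calls that were lost in 3 and 4 of the 6 fits (up to 0.0919 and 0.0785). For KYNU these were the fits without vector replicate 2 or either shRNA1 array, and for NMNAT2 those without any 1 of the vector and shRNA1 arrays. Sugar transfer genes included UST, a sulfotransferase of dermatan sulfate, which fell from 7.79 and 7.39 to 5.82 and 5.48 (-1.94). In membrane traffic, KIF16B, a kinesin of endosomes, fell by 2.06, MYO5C, a myosin of secretory granules, by 1.66 and SYTL2, an effector of Rab27, by 1.50. The mitosis and DNA replication lists had 0 called of 21 and 20 by limma, 8 and 5 higher at an unadjusted p under 0.05, 0 and 1 higher with the replicate block, and medians of 0.40 and 0.27 with 19 and 17 members above 0.

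G protein-coupled receptors and RGS proteins had 5 lower and 1 higher of 22, with a median of -0.26. F2RL2, a protease-activated receptor, had 9.76 and 9.63 with vector and 6.88 and 7.10 with shRNA1 (-2.71, adjusted p = 0.00129), and with shRNA2 8.03 and 8.16, between both. ADGRL2, an adhesion receptor of the latrophilin kind, fell by 1.62. LPAR1, a lysophosphatidic acid receptor, had a difference of -1.30, and lost its call in all fits but that without shRNA1 replicate 1 (up to 0.169). RGS4, which shuts off G proteins, was at 1.07, a call lost in all 6 fits (up to 0.123). Of 18 genes of BMP and activin signalling, CHRDL1, a BMP antagonist, fell by 2.25, and FST, follistatin, was at -1.35, with its call lost without vector replicate 1, either shRNA2 array or shRNA1 replicate 2 (up to 0.0624). Of the hypoxia list of 16, ADM, the vasodilator adrenomedullin, and HK2, a hexokinase, were lower at -1.46 and -1.26, and lost their calls in all 6 fits (ADM, up to 0.149) and in all but that without vector replicate 1 (HK2, up to 0.0746). Of 15 genes of the ATF4 response 1, the pseudokinase TRIB3, was lower (-1.26, call lost in all 6 fits), and of 7 housekeeping genes 0 were called by limma and 1 was higher at an unadjusted p under 0.05, with a median of 0.12.

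At an unadjusted p under 0.05, lists with 0 called higher had 0 (sterol synthesis), 0 (fatty acid), 2 (innate receptor), 1 (growth factor), 4 (matrix), 0 (amine metabolism), 1 (YAP and TAZ) members above vector. In the Wnt and complement lists, with 0 called lower, 5 and 1 were below vector at that level. Of all genes tested, 892 were higher and 945 lower at it. With the block, the Wnt list had 3 higher and 2 lower, the complement list 3 and 1 and the matrix list 3 and 4. The innate receptor list had 1 and 5, the YAP and TAZ list 1 and 2 and the junction list 0 and 7. Sterol synthesis had 0 and 8, fatty acid 0 and 6, growth factor 0 and 5 and all genes tested 151 and 360.

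**Figure D3:**
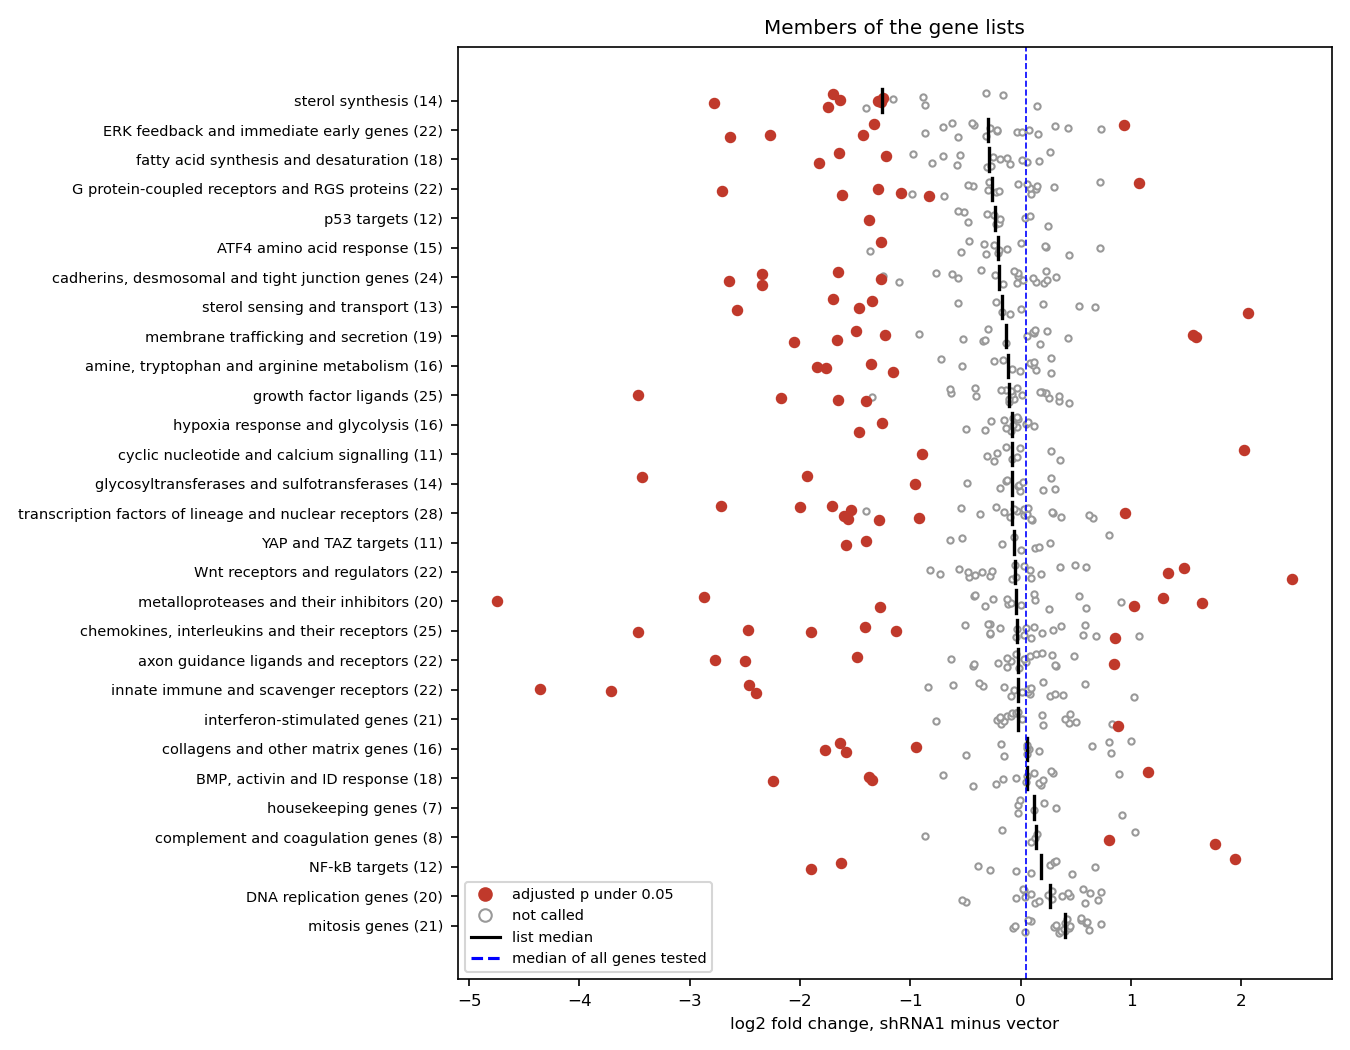
Log2 fold change of shRNA1 against vector (x axis) for each measured member of 29 gene lists (y axis, number of measured members in brackets). Filled points are called, open points are not, short bars are list medians and the dashed line is the median of all genes tested. Sterol synthesis has the lowest median, -1.26, and mitosis the highest, 0.40 with 0 members called.

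Of the 301 probe sets called with shRNA1, 178 (59.1%) were also called the same way with shRNA2, 44 higher and 134 lower, against 1.07% of all probe sets called higher and 1.5% called lower with shRNA2, 2.57% in all. These comparisons share the vector arrays, so the count marks genes and is no separate evidence. The other 123, of which 36 were higher and 87 lower, had a median direct difference between the shRNAs of 0.40 and -0.63. Tested directly by limma, 0 of the 301 differed between shRNA1 and shRNA2 at an adjusted p under 0.05 (background 0.00621%), and 45 of them did with the replicate block (background 2.3%). An ordinary t-test also gave 0, with 95 at an unadjusted p under 0.05. At an unadjusted p under 0.05 limma gave 133 of the 301 (background 15.6%), 122 of them farther from vector with shRNA1. The 301 were chosen by the same shRNA1 arrays, which favours such differences. Their shares above background, with or without the block, are therefore no separate evidence. Of the 123 not called with shRNA2, 88 did, all in that direction, which their choice favours. A gene called with shRNA1 and not with shRNA2 is therefore not shown to differ between them in the common fit. The direct tests given below for such genes did not pass in that fit and passed only with the block.

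INSIG1 had the widest gap of the genes called with shRNA1 and not with shRNA2, setting aside the dimmer CCN2 probe set, whose brighter one was called with both. With the replicate block, 50 of the 123 were called the same way with shRNA2 as well, among them INSIG1 (adjusted p = 0.0264) and IL18 (0.0106), while the other 8 of the 10 genes with the largest direct difference were not. The shRNA2 arrays of INSIG1 read 10.79 and 10.57, between the vector and the shRNA1 arrays and overlapping neither. The direct difference was -1.83 (standard error 0.16, adjusted p = 0.0515, and 0.00779 with the replicate block). Brackets after a direct difference hold its adjusted p in the common fit and with the block from here on. SCD had 12.99 and 12.67 with shRNA2 and a direct difference of -1.29 (0.0594, 0.014 with the block), and STARD4 had 9.67 and 9.80 and -1.14 (0.0594, 0.0169). These are 3 genes of lipid supply, and each was lower with shRNA1 than in all other arrays, which their choice favours. With shRNA2, 3 sterol synthesis and 5 fatty acid genes were called lower and 0 higher. Of the sterol sensing list 2 were called lower and 1 higher with shRNA2. Median direct differences of the lists were -0.49 (sterol synthesis), 0.02 (fatty acid) and -0.44 (sterol sensing). HMGCS1 was called lower with shRNA2 as well (-1.80).

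MILR1, an inhibitory receptor of mast cells, read 8.96 and 9.30 with vector, 7.69 and 8.02 with shRNA1 and 9.54 and 9.49 with shRNA2. It was lower with shRNA1 (-1.27), above both vector arrays with shRNA2, and differed directly by -1.66 (0.0515, 0.011 with the block). GXYLT2, a xylosyltransferase that acts on Notch, had 9.25 and 8.90, 8.02 and 7.64 and 9.22 and 9.31 in the same order. GDF15, a stress-induced cytokine, had 8.67 and 8.83, 7.53 and 7.22 and 8.69 and 8.50. For both, the shRNA2 arrays were near the vector arrays and the shRNA1 arrays below all others. IL18 had 8.31 and 8.58 with shRNA2, below vector and above shRNA1 (-1.51, 0.0594, 0.011 with the block), and TCP11L2 had 8.12 and 7.95 against 6.83 and 6.81 with shRNA1 (-1.22). The calls of MILR1, GXYLT2 and GDF15 against vector were lost in 5, 6 and 4 of the fits with 1 array left out (up to 0.105, 0.131 and 0.0671), for MILR1 all but that without vector replicate 1 and for GDF15 those without vector replicate 2, either shRNA2 array or shRNA1 replicate 2.

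The genes higher with shRNA1 and not called with shRNA2 were led by SCG5, a chaperone of prohormone convertase. It read 5.97 and 5.95 with vector, 7.36 and 7.74 with shRNA1 and 6.18 and 6.17 with shRNA2, a rise of 1.59 (adjusted p = 0.00621). The shRNA2 arrays were 0.21 above vector on average and below both shRNA1 arrays. The direct difference was 1.38 (0.0584, 0.014 with the block). The readthrough gene STAG3L5P-PVRIG2P-PILRB had 8.45 and 8.45 with vector and 9.47 and 9.39 with shRNA1, and 8.15 and 8.15 with shRNA2. It is part of a family of similar copies, which its probes may not separate. DDX60, an interferon-stimulated helicase, had 8.50 and 8.55, 9.43 and 9.38 and 8.36 and 8.36 (0.88 against vector, direct difference 1.05), and was the only member called by limma of 21 interferon-stimulated genes. The calls of STAG3L5P-PVRIG2P-PILRB and DDX60 were lost in all 6 fits (up to 0.102 and 0.134).

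**Figure D4:**
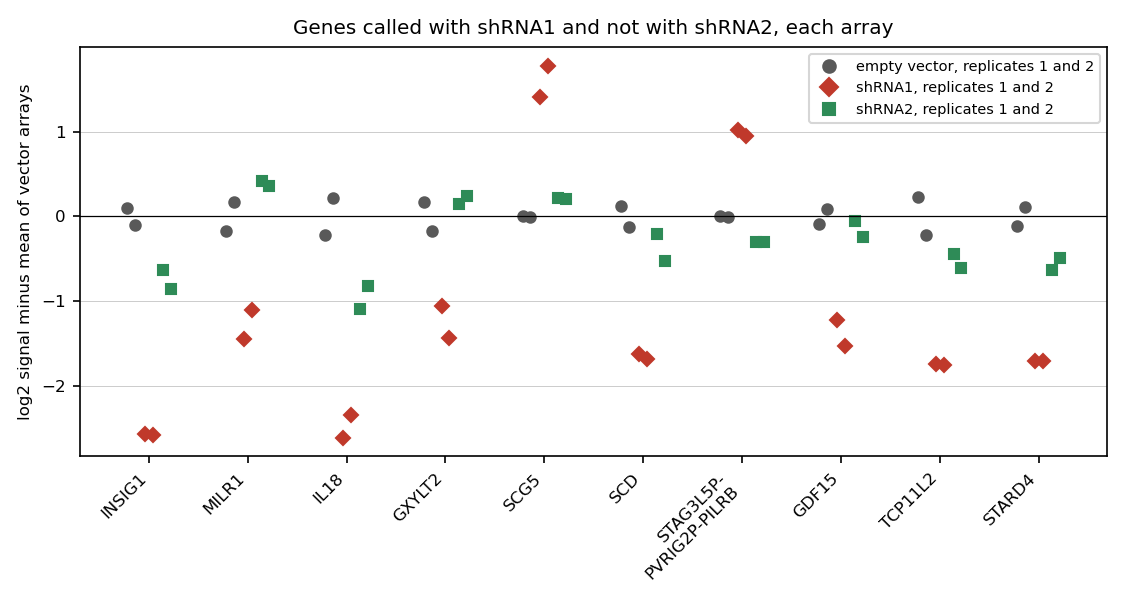
Log2 signal minus the mean of the vector arrays (y axis) in each vector (circles), shRNA1 (diamonds) and shRNA2 array (squares) for the 10 genes called with shRNA1 and not with shRNA2 that had the largest direct difference. The shRNA1 arrays lie outside the range of the other 4 arrays for each gene, below it for 8 genes and above it for SCG5 and STAG3L5P-PVRIG2P-PILRB.

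The share of called genes was not alike on all chromosomes, a pattern noticed after the values were seen and given without a test. Genes were ordered by RefSeq, 14871 of them placed, and the 7600 with a mean signal at or above the median of the probe sets tested were read in 369 windows of 20 neighbours. The 4 windows with the lowest medians of all were the 4 that follow the first on chromosome 18, at -0.38, -0.57, -0.63 and -0.76 in order from SPIRE1 to TSHZ1, while the first was at -0.03. In the last of these, 18 of 20 genes were below 0, and the median was between -0.86 and -0.57 for each pairing of 1 shRNA1 array with 1 vector array. All 108 brighter genes of chromosome 18 had a median of -0.42, against 0.02 over all chromosomes, and the next lowest chromosome, 12, had -0.08. Of all 232 genes of chromosome 18, dim ones included, 14 were called lower (6.03%) and 1 higher. With shRNA2, the same brighter genes had a median of -0.29 against the same vector arrays, and the direct difference was -0.06.

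The genes of chromosome 18 called lower, chosen here by position after their values were seen, have various roles. They include the desmosomal DSC2 and DSG2, the apoptosis inhibitor BCL2, the phosphatase PHLPP1, the sphingolipid enzyme KDSR, the asparaginyl-tRNA synthetase NARS1, the DNA polymerase POLI and the microRNA gene MIR320C1. CCDC68, a centriole protein, had 7.97 and 7.62 with vector and 5.94 and 5.98 with shRNA1 (-1.83, adjusted p = 0.00429). KDSR had 10.16 and 10.31 with vector and 9.16 and 9.20 with shRNA1 (-1.06), and NARS1, one of the brightest, had 12.14 and 11.86 with vector and 11.17 and 10.88 with shRNA1 (-0.97). The groups did not overlap for any of these, and KDSR, NARS1, BCL2 and POLI lost their calls in all 6 fits with 1 array left out (up to 0.187), PHLPP1 without vector replicate 1 or either shRNA2 array (up to 0.0522).

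Chromosome 7 held the 4 windows with the highest medians. In order along the chromosome these ran from DBF4 to SEM1 at 0.51, from ASNS to MCM7 at 0.61, from MIR25 to CUX1 at 0.44 and, farther on, from GCC1 to MEST at 0.55. In the ASNS and the GCC1 window, 20 of 20 genes were above 0, and every pairing of arrays gave medians between 0.49 and 0.67. Over its 366 brighter genes chromosome 7 had a median of 0.17, below those of chromosomes X (0.20) and 15 (0.18). Of 701 genes of chromosome 7, 14 were called higher (2%, against 0.497% of all genes) and 7 lower. They include the nuclear import receptor TNPO3, the kinase HIPK2, the lactonase PON2, the protease CPA4 and KLHDC10, all but CPA4 chosen by position after their values were seen. TNPO3 had 11.03 and 11.06 with vector and 11.96 and 11.77 with shRNA1 (0.82), PON2 had 8.99 and 8.92 with vector and 10.10 and 9.96 with shRNA1 (1.08), and KLHDC10 had 9.92 and 10.08 with vector and 10.93 and 11.02 with shRNA1 (0.98). None of these groups overlapped, and TNPO3, HIPK2, PON2 and KLHDC10 lost their calls in all 6 fits (up to 0.176). With shRNA2 the same 4 windows had medians of 0.69, 0.53, 0.04 and 0.50 against the shared vector arrays. Of the 369 windows, 12 were below -0.3 and 12 above 0.3.

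**Figure D5:**
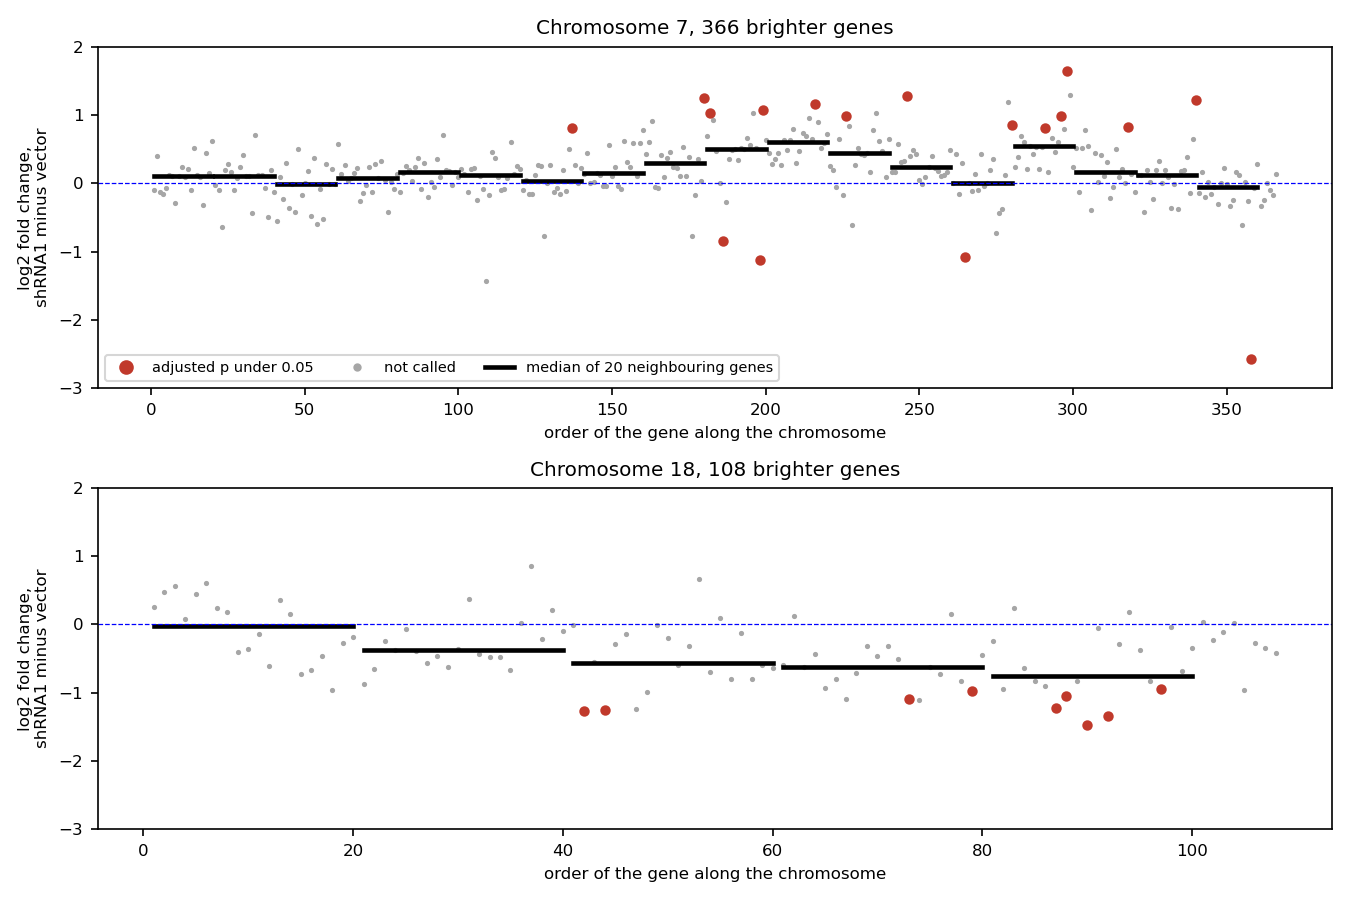
Log2 fold change of shRNA1 against vector (y axis) for the brighter genes of chromosomes 7 and 18 in their order along the chromosome (x axis, rank). Filled points are called, and bars are medians of 20 neighbouring genes. The bars of chromosome 18 fall from near 0 to -0.76, and those of chromosome 7 reach 0.61 in the middle of its order and 0.55 farther on.

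Some genes are read by several probe sets or have near copies, and those given here were chosen after their values were seen. The 4 probe sets of GAGE12C called higher include 3 with identical values, and they and GAGE12H may not be separated by their probes, and their calls were lost in all 6 fits with 1 array left out. RASA4 was higher on 2 of its 9 probe sets, by 1.30 and 1.21, and the other 7 were between 0.16 and 0.77. CASK, a scaffold kinase, was higher by 1.00 on its bright probe set and at -0.06 on its dim one. ANXA8 and ANXA8L1, near copies of an annexin gene, were both higher by 1.18. ANXA8 and ANXA8L1 lost their calls in all fits with 1 array left out but that without shRNA1 replicate 1 (up to 0.0896 and 0.1), RASA4 without either shRNA2 array, vector replicate 1 or shRNA1 replicate 1 on its higher probe set and in all but the fit without vector replicate 2 on the other (up to 0.0645 and 0.0766), and CASK in all 6 (up to 0.0998). KRTAP2-3, a keratin-associated protein gene with close relatives, fell by 2.72. In a bulk array, fewer cells of a type and less RNA per cell cannot be told apart, which bears on every value given here.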

How the data were processed

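RNA of MDA-MB-231-Luc-D3H1 cells was hybridised to 6 Affymetrix Human Gene 2.0 ST arrays, 2 each with empty vector, shRNA1 and shRNA2. The authors deposited log2 signals normalized by RMA in Affymetrix Expression Console, so signals of different probe sets are not comparable in level and depth is not defined. Precision is limited by the small number of arrays. Of 53617 probe sets, 16098 had 1 gene symbol in the platform annotation, 0 had several and 37519 had none there. The deposited columns held no comparisons by the authors, and 0 columns were left unused.

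Differences were tested with limma 3.58.1 in R 4.3.3, in a joint fit of 3 groups with 3 residual and 4.16 prior degrees of freedom, two-sided, with Benjamini-Hochberg adjustment over the 16098 probe sets and calls at an adjusted p under 0.05. The p-values measure the spread between these samples. Tables were made with Python 3.11.15, pandas 2.3.3 and NumPy 2.4.6, and figures with matplotlib 3.10.9. The joint fit of shRNA1 against vector, with and without the block, was tested on simulated data with independent noise. The other steps were not tested in this way. The joint fit used no pairing, and replicate numbers were read as pairs only in the blocked fit. The replicate differences of the groups correlated at 0.626 (vector and shRNA1), 0.145 (vector and shRNA2) and 0.15 (shRNA1 and shRNA2). The blocked fit is given for the counts over all probe sets, for the direct tests and for some of the gene lists.

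Of 38 gene lists, 37 had measured members, read at the brightest probe set of each gene, and 1 of the lists is not reported here. Genes to name were drawn from the 25 lowest and 15 highest called genes and the 10 called with shRNA1 alone that differed most from shRNA2. Further sources were up to 4 called members of each list (or its brightest member) and the called microRNA genes. Not all of these genes are described in the text. The members and lists were chosen with earlier results of these data known. Alternatives were the fit of the 4 arrays, the block, an intensity trend, centring and quantile normalization. Others were leaving out dim probe sets, all probe sets, 1 probe set per gene, an unadjusted threshold and each array left out. A further alternative was an ordinary t-test, which took the spread of each probe set only from the arrays compared. The study's methods name the software for its statistics but not the test. The recomputation of the direct contrast, the counts of kept calls and the chromosome windows were added after seeing the data. RefSeq sequences are of GRCh38.p14.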

Additional observations from a re-analysis of the deposited data

Results flagged for a closer look

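MIR539, a microRNA gene, differed between the shRNAs in a direct test. The vector arrays read 7.71 and 7.66, the shRNA1 arrays 7.78 and 7.96 and the shRNA2 arrays 5.64 and 5.29. The value with shRNA1 was close to vector (difference 0.18, limma adjusted p = 0.776), and shRNA1 minus shRNA2 was 2.4051 (standard error 0.17, adjusted p = 0.0324, and 0.00698 with the replicate block). It was the 1 probe set of 16098 that passed this direct test.

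Probe sets with no gene name here also changed with shRNA1. In a limma fit over all 53617 probe sets, 96 of the 37519 unnamed ones were called, 34 higher and 62 lower, with changes from -6.34 to 5.96. That is 0.256% of them, against 0.615% of the named ones in the same fit.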

How the results depend on the processing

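The counts moved with the test, the model, the arrays and the probe sets fitted, and the cause was not tested. Against 301 calls (80 higher, 221 lower, 178 shared with shRNA2), the 4 arrays alone gave 111 (20 higher, 91 lower, 93 shared) and the replicate block 535 (165 higher, 370 lower, 336 shared, with 70 of the 535 differing directly between the shRNAs). An ordinary t-test gave 1 after adjustment (1 higher, 0 lower, 0 shared). Leaving out dim probe sets gave 143 lower and 116 shared, and testing all probe sets 195 (53 higher, 142 lower). The direct difference between shRNAs, 0 of the calls, became 4 with an intensity trend, 7 with 1 probe set per gene and 31 at an unadjusted p under 0.001. With each array left out in turn the count was between 111 and 138, 20 to 28 higher, 88 to 115 lower and 6 to 104 shared. The lowest shared count, 6, came without shRNA2 replicate 2, and without shRNA2 replicate 1 it was 7. Of 108 named probe sets with a call, 108 kept it with the block, 77 in the 4 arrays, 69 over all probe sets and 107 each with centring and quantile normalization, and between 69 and 80 with 1 array left out. All 108 lost it under the ordinary t-test. None of the 108 reversed under any of these settings. With 2 arrays per group and low signals for microRNA genes, small changes were not detectable.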
